A study of Mus musculus with 3 samples.

Results

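Wnt pathway genes were examined in endothelial cells sorted from embryoid bodies, the floating aggregates in which embryonic stem cells differentiate. The members are 52 genes listed by name for their roles in the pathway, namely 12 Wnt ligands, their acyltransferase, 10 Frizzled receptors, 2 co-receptors, 3 kinase-like receptors, 4 genes of the R-spondin axis, 7 inhibitor genes, 7 transducers, 4 TCF/LEF factors and 2 feedback inhibitors. All 52 were found among the 23397 genes of the files. The members and the other gene lists below were chosen with earlier results of these data known. The groups were SclKO cells, labelled as a knockout of Scl (current symbol Tal1, a transcription factor that blood formation requires), Gata12KO cells, labelled as a knockout of Gata1 and Gata2, and wild type (WT) cells. Each group was 1 library, so 3 libraries were compared in all. The 3 groups shared their handling, per the labels: mouse embryonic stem cells were differentiated for 4.75 days, and the sort took cells with Tie2 and CD31 but without CD41 on their surface. The sources used here give no number of stem cell clones or cultures behind a library.

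Wnt proteins are secreted, lipid-modified ligands that bind Frizzled receptors together with the co-receptors Lrp5 and Lrp6. Binding is relayed by Dishevelled proteins to a complex of axin, Apc and Gsk3b that otherwise marks beta-catenin for destruction, and stabilised beta-catenin acts with TCF/LEF factors on target genes. Axin2, Nkd1 and Lef1 are among those targets in many tissues, and a separate branch through Ror and Ryk receptors acts on cell polarity and movement. In embryos Wnt signalling is known for its part in forming mesoderm, and in endothelium for the growth of vessels of the brain and retina.

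Levels are FPKM (fragments counted per length of transcript and per depth of library), with the deposited lower and upper bounds. These cover counting error and no differences between cultures. For genes with several RefSeq entries they can be wider than counting error, as for Wnt5a in the library labelled Gata12KO (2.61 to 4.78). The bounds imply 28.3M fragments in the SclKO library, 50.3M in the Gata12KO library and 31.6M in the WT library. Tal1 had 1.59 FPKM in SclKO, 38.7 in Gata12KO and 51.0 in WT. Gata1 was listed at 0 in SclKO and had 5.66 FPKM in Gata12KO and 4.64 in WT, and Gata2 had 5.81 in SclKO, 44.9 in Gata12KO and 12.05 in WT. These values cover the whole transcript and do not show whether a deleted part was read. Since neither Gata1 nor Gata2 was lower in that library than in WT, it is called the library labelled Gata12KO. The sorting antigens Tek (Tie2) and Pecam1 (CD31) had 42.4 and 50.4 FPKM in SclKO, 62.9 and 66.5 in the library labelled Gata12KO, and 62.9 and 48.3 in WT. A ratio is log2((FPKM + 1)/(FPKM + 1)), which understates differences of weakly expressed genes. A gene is called higher or lower where at least 1 library had 1 FPKM, the ratio was at least 2-fold and the bounds of both libraries were apart. With 1 library per group there is no test, no replicate check and no p-value, and every difference describes these libraries.

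In SclKO against WT, 6 members were higher and 1 was lower. The higher ones were the receptors Fzd2, Fzd10 and Ror2, the secreted inhibitor Dkk1, the transcription factor Lef1 and the feedback inhibitor Axin2, and the lower one was the secreted inhibitor Sfrp2. A level of 1 FPKM in any library was reached by 37 of the 52 members, so the higher ones were 16.2% and the lower one 2.70% of these. Of all 11080 genes at that level, 2.12% were higher and 4.24% lower. Since the members were chosen with earlier results known, this contrast describes the list only. Against WT, the library labelled Gata12KO had 0 members higher and only Sfrp2 lower, while 0.767% of all genes were higher and 3.75% lower. With TPM, 7 members were higher (Wnt5a, Fzd3, Fzd10, Lrp5, Axin2, Gsk3b and Rspo3), beside 11.6% of all genes. The library labelled Gata12KO had Rspo3 higher than SclKO and 7 members lower, namely Wnt2, Fzd2, Dkk1, Dkk3, Tcf7, Nkd1 and Ror2. That is 2.70% and 18.9% of the 37 members, beside 3.38% and 3.75% of all genes. The scaling decided the balance of calls over all genes in the comparisons with the library labelled Gata12KO, where 85 genes were higher and 415 lower than in WT with FPKM, but 1348 higher and 118 lower with TPM, and 375 higher and 416 lower than in SclKO with FPKM, but 2174 higher and 122 lower with TPM. In SclKO over WT it was 235 higher and 470 lower with FPKM, 192 and 605 with TPM, and 351 and 398 when scaled to the sum over transcripts of 300 nt or longer. The 3 comparisons share their libraries, so they are not independent of each other.

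The median ratio of the 37 members was 0.40 in SclKO over WT, beside -0.03 for all genes at 1 FPKM. It was 0.05 in the library labelled Gata12KO over WT, beside -0.08. For the library labelled Gata12KO over SclKO it was -0.33, beside -0.06, but it turned to 0.37 with every library scaled to 1 total (TPM), which also moved the median of all genes to 0.66. Wnt11 and Ror1 reached 1 FPKM in SclKO alone and Fzd8 in WT alone, so that these entered the 37 through the library in which they were high. SclKO held the highest level of 22 of the 37 members, the library labelled Gata12KO that of 8 and WT that of 7. Of all genes at 1 FPKM, SclKO was highest for 33.8%, the library labelled Gata12KO for 26.2% and WT for 40.0%. These counts of highest libraries are given for the deposited FPKM only. TPM multiplies FPKM by 1.035 in SclKO, 1.827 in the library labelled Gata12KO and 1.128 in WT, so they depend on the scaling. Only Fzd2 passed the rule in SclKO over WT with a pseudocount of 5 FPKM in place of 1, and 12 members were higher with 0.1. The share of all genes higher was 0.74% with 5 and 4.29% with 0.1. Rescaling to TPM left all 7 calls of SclKO over WT in place, but of the 7 members lower in the library labelled Gata12KO than in SclKO it left 0. Median-ratio scaling left 5 of the latter, the sum over transcripts of 300 nt or longer left 5, and removing the length trend left 6.

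**Figure D1:**
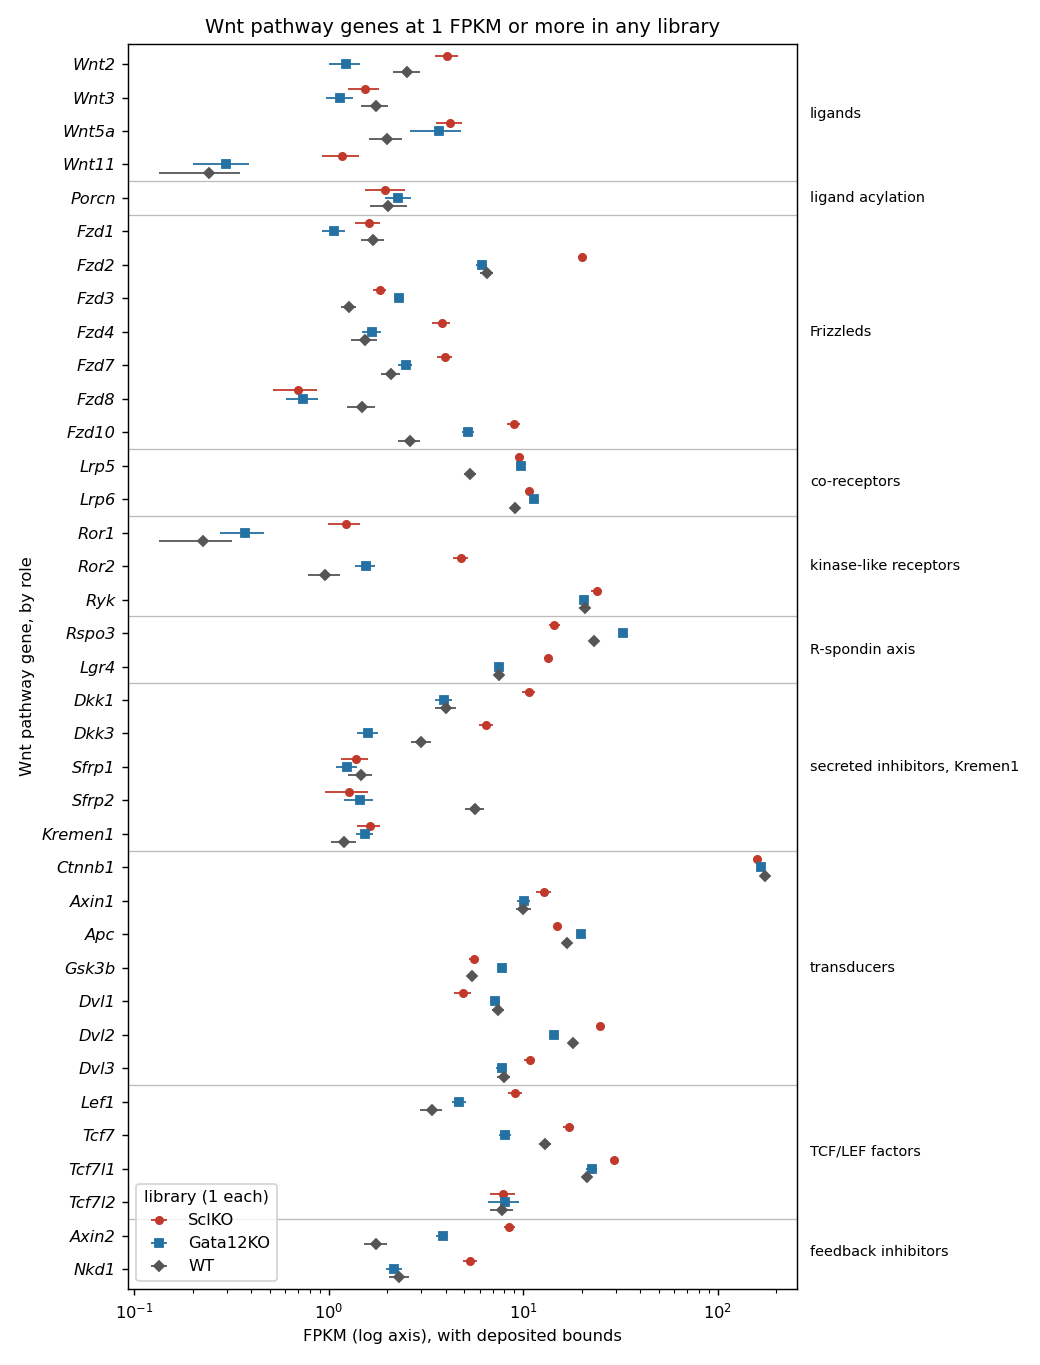
FPKM (horizontal log axis) of the 37 Wnt pathway genes with at least 1 FPKM in any library, by role from ligands at the top to feedback inhibitors at the bottom. Points are the SclKO, Gata12KO and WT libraries, 1 each, and bars the deposited bounds, which cover no differences between cultures. SclKO lies to the right for Fzd2, Fzd10, Ror2, Dkk1, Lef1 and Axin2, and WT for Sfrp2.

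Ligands were scarce. Of 12 Wnt genes 4 reached 1 FPKM in any library, and the summed level of all 12 was 12.45 FPKM in SclKO, 7.48 in the library labelled Gata12KO and 7.61 in WT. Wnt2, a ligand that acts through beta-catenin, had 4.08 FPKM in SclKO (bounds 3.53 to 4.63), 1.22 in the library labelled Gata12KO (1.00 to 1.45) and 2.54 in WT (2.13 to 2.95). The 3 levels had separate bounds, with the lowest in the library labelled Gata12KO at a ratio to SclKO of -1.19. Wnt5a, the best-known ligand of the polarity branch, had 4.19 FPKM in SclKO (3.55 to 4.84), 3.68 in the library labelled Gata12KO (2.61 to 4.78) and 2.01 in WT (1.62 to 2.399). Its bounds in SclKO and in the library labelled Gata12KO lay above those of WT and overlapped each other, at ratios to WT of 0.79 and 0.64 that did not pass the rule. Wnt3, an inducer of the primitive streak, had 1.54 FPKM in SclKO, 1.15 in the library labelled Gata12KO and 1.75 in WT. Wnt11, another ligand of the polarity branch, with a known part in heart formation, had 1.17 FPKM in SclKO (0.921 to 1.43), 0.296 in the library labelled Gata12KO and 0.243 in WT (0.134 to 0.352). Its level in SclKO was 4.83-fold that in WT as a plain quotient of FPKM, but the ratio with the pseudocount was 0.81.

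The other 8 ligands stayed under 1 FPKM in every library. Wnt5b was highest among them, with 0.765 FPKM in SclKO, 0.532 in the library labelled Gata12KO and 0.651 in WT. Wnt2b had 0.251 in SclKO, 0.251 in the library labelled Gata12KO and 0.299 in WT. Wnt4 and Wnt6 lay between 0.0168 and 0.227 FPKM in all 3 libraries. Wnt3a, a ligand that acts through beta-catenin in the primitive streak and presomitic mesoderm, was listed at 0 in SclKO and in the library labelled Gata12KO and had 0.0247 in WT. Wnt7b, Wnt8a and Wnt9b did not exceed 0.0668 FPKM in any library. Porcn, the acyltransferase without which Wnt proteins are not secreted, had 1.95, 2.27 and 2.02 FPKM in SclKO, the library labelled Gata12KO and WT, with overlapping bounds. Wls, the carrier that brings acylated Wnt proteins to the cell surface, was not a member and had 21.4 FPKM in SclKO, 16.6 in the library labelled Gata12KO and 24.4 in WT.

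Frizzled receptors, taken as a sum, were highest in SclKO. The summed level of the 10 genes was 42.2 FPKM there, 20.7 in the library labelled Gata12KO and 18.2 in WT. Fzd2 (chromosome 11, bases 102465745 to 102469372 of mm9, forward strand, 1 exon) had 20.1 FPKM in SclKO (19.2 to 21.1), 6.12 in the library labelled Gata12KO (5.75 to 6.50) and 6.53 in WT (6.04 to 7.02). It rested on 1954, 1067 and 711 implied fragments. SclKO stood 3.08-fold above WT, a ratio of 1.49, and the other two libraries overlapped. Fzd10 (chromosome 5, bases 129106981 to 129109968, forward strand, 1 exon) had 8.997 FPKM in SclKO (8.32 to 9.67), 5.21 in the library labelled Gata12KO (4.83 to 5.59) and 2.62 in WT (2.28 to 2.96). All 3 levels had separate bounds, with ratios to WT of 1.47 in SclKO and 0.78 in the library labelled Gata12KO. Fzd2 and Fzd10 were the 2 highest Frizzled genes of each library. Fzd2 made up 47.7% of the Frizzled sum in SclKO, 29.5% in the library labelled Gata12KO and 35.8% in WT, and Fzd10 21.3%, 25.1% and 14.4%.

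Of the other Frizzled genes, Fzd4 and Fzd7 showed SclKO apart from the remaining libraries without passing the rule. Fzd4, the receptor of Norrin in retinal vessels, had 3.81 FPKM in SclKO (3.42 to 4.21), 1.68 in the library labelled Gata12KO (1.48 to 1.87) and 1.55 in WT (1.31 to 1.78), a ratio to WT of 0.92 in SclKO. Fzd7 had 3.96 FPKM in SclKO, 2.49 in the library labelled Gata12KO and 2.09 in WT, a ratio to WT of 0.68 in SclKO. Fzd3, a receptor of the polarity branch, was lowest in WT, with 1.84 FPKM in SclKO, 2.30 in the library labelled Gata12KO and 1.27 in WT. Fzd8 was the one Frizzled gene with WT highest and apart, at 0.696 FPKM in SclKO (0.520 to 0.873), 0.744 in the library labelled Gata12KO (0.607 to 0.880) and 1.49 in WT (1.25 to 1.74). Fzd1 had 1.61, 1.07 and 1.69 FPKM in SclKO, the library labelled Gata12KO and WT. Fzd5, Fzd6 and Fzd9 stayed under 1 FPKM, between 0.102 and 0.586 in the 3 libraries. Fzd9 had 0.499 FPKM in SclKO, 0.102 in the library labelled Gata12KO and 0.181 in WT, and Fzd5 was highest in the library labelled Gata12KO at 0.586, against 0.187 in SclKO and 0.401 in WT.

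The co-receptors differed less. Lrp5 had 9.58 FPKM in SclKO (9.05 to 10.1), 9.81 in the library labelled Gata12KO (9.42 to 10.2) and 5.34 in WT (4.97 to 5.70). WT lay apart below both other libraries, with ratios of 0.74 in SclKO and 0.77 in the library labelled Gata12KO. Lrp6 had 10.7, 11.4 and 9.07 FPKM in SclKO, the library labelled Gata12KO and WT.

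The Ror receptors, tyrosine-kinase-like proteins that bind Wnt5a, were highest in SclKO. Ror2 (chromosome 13, bases 53204686 to 53381478, reverse strand, 9 exons) had 4.78 FPKM in SclKO (4.36 to 5.20), 1.56 in the library labelled Gata12KO (1.38 to 1.74) and 0.961 in WT (0.782 to 1.14). That was 4.97-fold more in SclKO than in WT, a ratio of 1.56 on 510 and 115 implied fragments. Ror1 had 1.23 FPKM in SclKO (0.999 to 1.45), 0.371 in the library labelled Gata12KO (0.277 to 0.464) and 0.226 in WT (0.134 to 0.319), a ratio to WT of 0.86 in SclKO that did not pass the rule. Ryk, a receptor of another structure with a broad distribution, made up 79.9% of the level summed over these 3 genes in SclKO, 91.4% in the library labelled Gata12KO and 94.6% in WT. It had 23.9, 20.6 and 20.7 FPKM there.

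R-spondins strengthen Wnt signals through Lgr receptors. Rspo3, known for its part in vessel growth and in placental vessels of the mouse, was lowest in SclKO, with 14.5 FPKM there (13.5 to 15.5), 32.7 in the library labelled Gata12KO (31.6 to 33.8) and 23.2 in WT (22.0 to 24.4). All 3 levels had separate bounds, and only the ratio of the library labelled Gata12KO to SclKO passed the rule, at 1.12. The receptor Lgr4 went the other way, with 13.4 FPKM in SclKO (12.8 to 14.1), 7.54 in the library labelled Gata12KO (7.19 to 7.89) and 7.53 in WT (7.09 to 7.98), a ratio to WT of 0.76 in SclKO. Lgr5, a receptor of stem cells in many epithelia, had at most 0.428 FPKM and Rspo1 at most 0.173 FPKM in any library.

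Secreted inhibitors held calls in both directions. Dkk1, which binds Lrp5 and Lrp6 and blocks them, lies on chromosome 19, bases 30620374 to 30623986, reverse strand, in 4 exons. It had 10.7 FPKM in SclKO (9.86 to 11.6), 3.92 in the library labelled Gata12KO (3.54 to 4.31) and 4.03 in WT (3.53 to 4.53), 2.66-fold more in SclKO than in WT. Its ratio was 1.22 in SclKO over WT. The library labelled Gata12KO had a ratio of -1.25 to SclKO, and the bounds of the library labelled Gata12KO and WT overlapped. Dkk3, a relative that does not bind those receptors, had 6.46 FPKM in SclKO (5.93 to 7.002), 1.60 in the library labelled Gata12KO (1.40 to 1.80) and 3.00 in WT (2.66 to 3.35). The 3 levels had separate bounds, and the ratio passed the rule between the library labelled Gata12KO and SclKO (-1.52) but not in SclKO over WT (0.90). Sfrp2, a secreted Frizzled-related protein that binds Wnt proteins, lies on chromosome 3, bases 83570243 to 83578236, forward strand, in 3 exons. It had 1.28 FPKM in SclKO (0.959 to 1.59), 1.45 in the library labelled Gata12KO (1.20 to 1.70) and 5.68 in WT (5.05 to 6.31), on 65, 134 and 326 implied fragments. WT stood apart from both other libraries, which overlapped, with ratios of -1.55 in SclKO and -1.45 in the library labelled Gata12KO.

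The remaining inhibitor genes showed little. Sfrp1 had 1.38, 1.25 and 1.47 FPKM in SclKO, the library labelled Gata12KO and WT, with overlapping bounds. Kremen1, a receptor that takes up Lrp6 together with Dkk proteins, had 1.63, 1.54 and 1.21 FPKM in the same order. Sfrp5 stayed between 0.195 and 0.270 FPKM, and Dkk2 between 0.0168 and 0.0504.

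**Figure D2:**
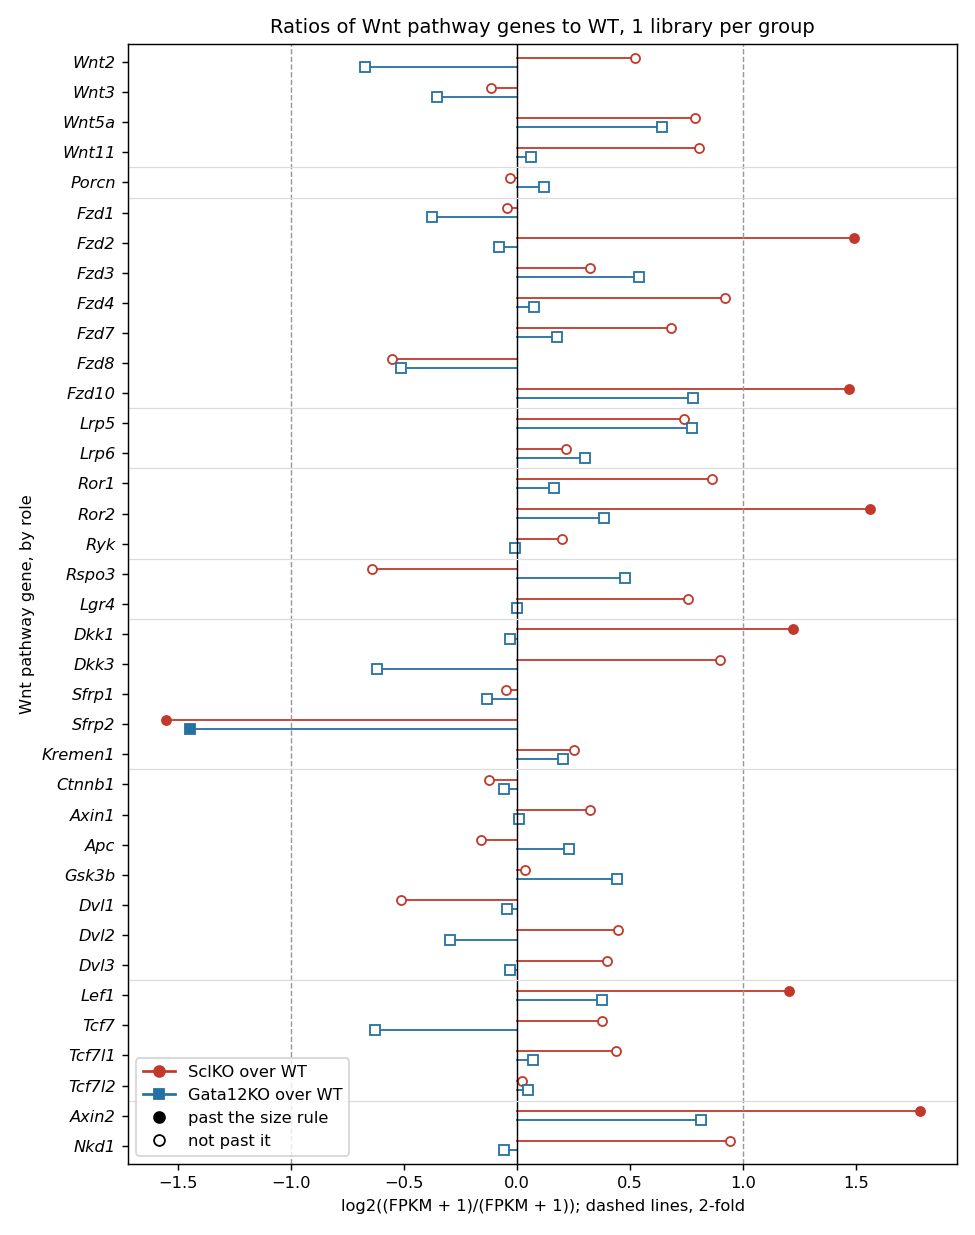
Ratio log2((FPKM + 1)/(FPKM + 1)) of each of the 37 expressed Wnt pathway genes, for SclKO over WT (circles) and Gata12KO over WT (squares), 1 library per group. Filled symbols passed the size rule, which also asks for separate bounds. Filled circles are Fzd2, Fzd10, Ror2, Dkk1, Lef1 and Axin2 to the right and Sfrp2 to the left, and the single filled square is Sfrp2. With TPM in place of FPKM, 7 squares would pass to the right, beside 11.6% of all genes.

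Of the 7 transducers, 0 passed the rule in any comparison of the deposited values, and Ctnnb1 was by far the most abundant of them. With TPM, Gsk3b passed in the library labelled Gata12KO over WT, and Apc, Gsk3b and Dvl1 over SclKO. Of all genes, 11.6% and 18.8% were then higher in these comparisons. Beta-catenin (Ctnnb1) had 159.7 FPKM in SclKO (155 to 164), 168 in the library labelled Gata12KO (164 to 171) and 174 in WT (171 to 178). It ranked 287th, 204th and 282nd among the 11080 expressed genes. Apc, a scaffold of the destruction complex, had 14.9 FPKM in SclKO, 19.8 in the library labelled Gata12KO and 16.8 in WT. Gsk3b, the kinase of that complex, had 5.61, 7.78 and 5.46 FPKM in the same libraries, and Axin1, its other scaffold, had 12.8, 10.1 and 10.1. Of the Dishevelled genes, Dvl2 and Dvl3 were highest and Dvl1 lowest in SclKO. Dvl1 was lowest in SclKO, with 4.91 FPKM (4.44 to 5.38), against 7.19 in the library labelled Gata12KO (6.76 to 7.61) and 7.44 in WT (6.90 to 7.99). Dvl2 was highest in SclKO, with 24.9 FPKM (23.8 to 26.1), against 14.5 in the library labelled Gata12KO (13.9 to 15.1) and 18.04 in WT (17.1 to 19.0). Dvl3 had 10.8, 7.77 and 7.96 FPKM. Summed, the 3 Dishevelled and 4 other transducers came to 234 FPKM in SclKO, 235 in the library labelled Gata12KO and 240.1 in WT.

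Among the factors that bring beta-catenin to DNA, Lef1 passed the rule. Lef1 (chromosome 3, bases 130813389 to 130926249, forward strand, 12 exons) had 9.10 FPKM in SclKO (8.34 to 9.85), 4.69 in the library labelled Gata12KO (4.29 to 5.10) and 3.38 in WT (2.95 to 3.82). The 3 levels had separate bounds, with ratios to WT of 1.20 in SclKO and 0.38 in the library labelled Gata12KO. Lef1 gave 14.3% of the FPKM of the 4 factors in SclKO, 10.8% in the library labelled Gata12KO and 7.43% in WT. Tcf7, also known as TCF1, had 17.2 FPKM in SclKO (16.1 to 18.3), 8.08 in the library labelled Gata12KO (7.52 to 8.64) and 13.0 in WT (12.1 to 13.9). Its ratio of -1.003 in the library labelled Gata12KO over SclKO sat on the 2-fold limit, and the call ended under every rescaling of the libraries and with the length trend removed. Tcf7l1, the factor that mostly represses targets in the absence of beta-catenin, was the highest of the 4 in each library, with 29.3, 22.5 and 21.4 FPKM in SclKO, the library labelled Gata12KO and WT. Tcf7l2 had 7.88, 8.07 and 7.76 FPKM, with overlapping bounds.

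Axin2, a feedback scaffold of the destruction complex that beta-catenin induces, had the largest ratio of the 37 members in SclKO over WT with the pseudocount of 1 FPKM. With a pseudocount of 5 FPKM Fzd2 (1.12) was above Axin2 (0.997), and as plain quotients of FPKM Ror1 (5.42-fold), Ror2 (4.97-fold) and Wnt11 (4.83-fold) were above Axin2 (4.82-fold). It lies on chromosome 11, bases 108781663 to 108812095, forward strand, in 11 exons. It had 8.50 FPKM in SclKO (7.96 to 9.04), 3.86 in the library labelled Gata12KO (3.58 to 4.13) and 1.76 in WT (1.53 to 2.00), on 976, 794 and 227 implied fragments. The 3 levels had separate bounds. The ratio was 1.78 in SclKO over WT, 0.81 in the library labelled Gata12KO over WT and -0.97 for that library over SclKO. Nkd1, a feedback inhibitor that binds Dishevelled, had 5.37 FPKM in SclKO (4.94 to 5.82), 2.18 in the library labelled Gata12KO (1.98 to 2.40) and 2.31 in WT (2.05 to 2.60). SclKO stood apart from the other libraries, which overlapped. Its ratio to WT of 0.94 in SclKO missed the rule and passed it only under another scaling (to the sum over transcripts of 300 nt or longer), with the pseudocount of 0.1 or with a 1.5-fold limit. Its ratio of -1.002 in the library labelled Gata12KO over SclKO passed it narrowly, and that call ended under each rescaling of the libraries.

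The promoters of higher members in SclKO over WT are shown because Lef1 and Axin2 are themselves targets of TCF/LEF factors, whose core motif is CTTTGA. RefSeq windows of GRCm38.p6, a build other than that of the files, run from 250 bases before to 50 after a start site, and 35 of the 52 members matched them by symbol, with 44 windows. Among the 6 higher members, Fzd2 has no window there and is named only. Capitals mark CTTTGA on either strand (TCAAAG where it lies on the reverse strand). Windows are written 5′ to 3′ on the gene's strand, from chr11:108920099-108920398 (Axin2, forward), chr19:30549447-30549746 (Dkk1, reverse), chr3:131156044-131156343 (Lef1, forward, a start site inside the gene and the one of its 4 windows with a match), chr5:128600856-128601155 (Fzd10, forward) and chr13:53286075-53286374 (Ror2, reverse).
Axin2: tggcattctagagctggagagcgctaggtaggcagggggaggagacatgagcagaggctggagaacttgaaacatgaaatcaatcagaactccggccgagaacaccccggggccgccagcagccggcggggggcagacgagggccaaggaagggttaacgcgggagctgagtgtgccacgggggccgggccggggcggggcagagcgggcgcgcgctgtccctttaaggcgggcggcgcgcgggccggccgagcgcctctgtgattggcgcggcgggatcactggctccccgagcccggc
Dkk1: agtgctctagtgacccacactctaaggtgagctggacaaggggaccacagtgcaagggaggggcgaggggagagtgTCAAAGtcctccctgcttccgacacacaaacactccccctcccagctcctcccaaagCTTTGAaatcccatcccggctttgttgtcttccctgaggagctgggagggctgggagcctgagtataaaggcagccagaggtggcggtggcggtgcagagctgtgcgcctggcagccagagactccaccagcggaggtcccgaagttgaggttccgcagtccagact
Lef1: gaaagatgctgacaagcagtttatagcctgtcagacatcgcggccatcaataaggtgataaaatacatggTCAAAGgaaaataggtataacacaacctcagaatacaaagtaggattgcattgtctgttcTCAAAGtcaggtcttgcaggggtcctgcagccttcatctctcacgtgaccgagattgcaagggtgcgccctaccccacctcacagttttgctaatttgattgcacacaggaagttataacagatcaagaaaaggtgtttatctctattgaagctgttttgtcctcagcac
Fzd10: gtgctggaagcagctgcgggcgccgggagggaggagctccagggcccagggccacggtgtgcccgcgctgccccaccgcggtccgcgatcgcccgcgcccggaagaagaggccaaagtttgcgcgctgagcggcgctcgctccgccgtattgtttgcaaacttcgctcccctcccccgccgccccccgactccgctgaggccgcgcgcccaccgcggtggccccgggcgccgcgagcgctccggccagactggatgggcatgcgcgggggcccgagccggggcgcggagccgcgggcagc
Ror2: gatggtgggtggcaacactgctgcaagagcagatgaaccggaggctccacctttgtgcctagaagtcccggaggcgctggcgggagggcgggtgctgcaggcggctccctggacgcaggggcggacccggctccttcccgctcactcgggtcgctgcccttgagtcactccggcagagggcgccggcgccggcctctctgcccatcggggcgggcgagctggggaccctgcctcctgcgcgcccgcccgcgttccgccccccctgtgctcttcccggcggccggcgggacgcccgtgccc

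Dkk1 held CTTTGA at offsets of -174 and -117 from the start site, and the internal Lef1 window at -180 and -120. The other 3 Lef1 windows, those at the gene's 5′ start among them, held none. The windows of Axin2, Fzd10 and Ror2 held no match, which says only that these letters are not in those 300 bases. Counting every window of the 5 higher members with one, 2 of 8 windows held CTTTGA (25%), beside 7 of the 44 windows of all members (15.9%), 11.5% of windows of genes at 1 FPKM and 16.0% of all 32851 windows of the table. Among members at 1 FPKM, 6 of 31 windows held it (19.4%). The GATA motif AGATAA was, on either strand, in 9.09% of members' windows, in 6.08% of windows of genes at 1 FPKM and in 11.2% of all windows. The E-box CANNTG, the kind of site Scl binds with its partners, was in 59.1%, 62.3% and 72.3% of the same windows. Of the 9 matches to CTTTGA in members' windows, 0 shared bases with AGATAA or CANNTG. A match is a description of the letters and not a binding site.

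Several members have more than 1 RefSeq entry in the files, and the split of fragments among entries is the deposited estimate, which rests on the few bases in which they differ. The plot of stacked entries shows 4 such genes. For Ctnnb1 the entry with the longer 5′ end (NM_007614, starting at 120842518 of chromosome 9) gave 28.4% of the gene's FPKM in SclKO, 20.5% in the library labelled Gata12KO and 12.4% in WT. Its level was 45.4 FPKM in SclKO (43.7 to 47.2), 34.3 in the library labelled Gata12KO (33.2 to 35.5) and 21.7 in WT (20.5 to 22.9), so that it differed more than the gene's total. For Tcf7l1 the entry of 13 exons (NM_001079822) had an upper bound of 0.0274 FPKM in SclKO, a level of 5.94 FPKM in the library labelled Gata12KO, which was 26.4% of the gene, and an upper bound of 0.0244 FPKM in WT. For Tcf7l2 the entry that led in SclKO and WT (NM_001142923) gave 80.4% of the gene in SclKO, 24.8% in the library labelled Gata12KO and 80.6% in WT. A further entry (NM_001142922) gave 0.659%, 35.3% and 5.60% in the same libraries, and another (NM_001142921) gave 28.1% in the library labelled Gata12KO and was listed at 0 in SclKO and WT. The other Wnt5a entry, with a start site farther upstream (NM_009524), gave 26.7% in SclKO, 12.2% in the library labelled Gata12KO and 12.7% in WT. Its level in the library labelled Gata12KO was 0.448 FPKM with bounds of 0 to 0.922, so that share is loosely set. Exons of Gsk3b share 260 bases with BC031361 on the opposite strand, those of Tcf7l1 84 with Gm15401 and those of Dvl1 34 with Tas1r3. Each of these 3 neighbours had under 0.479 FPKM in every library. The sources used here do not state whether counting used strand.

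**Figure D3:**
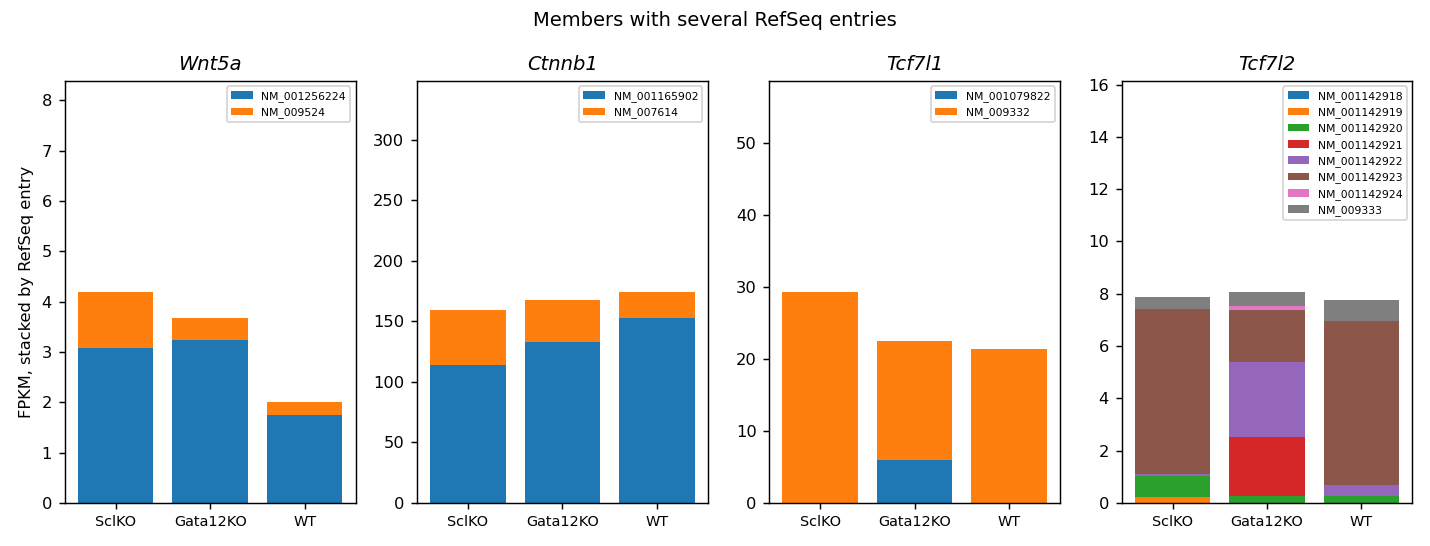
FPKM of the RefSeq entries of Wnt5a, Ctnnb1, Tcf7l1 and Tcf7l2, stacked per library, for SclKO, Gata12KO and WT, 1 library each and with no error bars. The longer Ctnnb1 entry (NM_007614) has 45.4 FPKM in SclKO, 34.3 in the library labelled Gata12KO and 21.7 in WT, and the library labelled Gata12KO alone has 5.94 FPKM of the 13-exon Tcf7l1 entry.

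Around the rule's limit, values were close together. In SclKO over WT the members just inside were Lef1 (1.20), Dkk1 (1.22) and Fzd10 (1.47), and those just outside Nkd1 (0.94), Fzd4 (0.92) and Dkk3 (0.90). Between the library labelled Gata12KO and WT, Sfrp2 was inside at -1.45, and Axin2 (0.81), Fzd10 (0.78) and Lrp5 (0.77) were next outside. Between that library and SclKO, Nkd1 (-1.002), Tcf7 (-1.003) and Rspo3 (1.12) were just inside, and Axin2 (-0.97), Fzd4 (-0.85) and Lef1 (-0.83) just outside. The deposited bounds were apart for more members than passed the rule. They lay above WT in SclKO for 25 of 37 members and below for 6, beside 26.3% and 31.6% of all expressed genes. They lay above WT in the library labelled Gata12KO for 11 members and below for 8, beside 24.2% and 37.6%, and against SclKO above for 6 and below for 21, beside 24.8% and 33.5%. These counts are given for the deposited FPKM only and depend on the scaling.

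**Figure D4:**
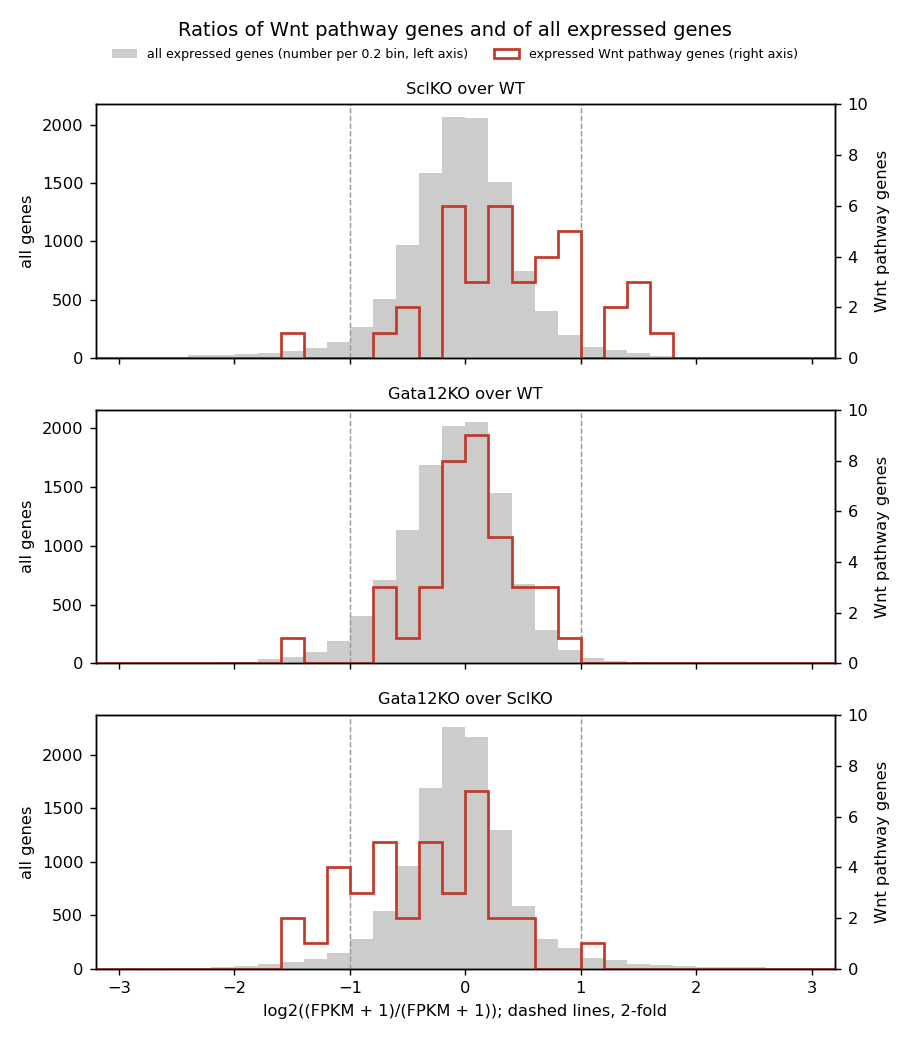
Number of genes by ratio log2((FPKM + 1)/(FPKM + 1)) in bins of 0.2, for all 11080 expressed genes (grey, left axis) and the 37 expressed Wnt pathway genes (red outline, right axis), in 3 comparisons of single libraries. The members' median is 0.40 in SclKO over WT, 0.05 in the library labelled Gata12KO over WT, and -0.33 for that library over SclKO, which turns to 0.37 with TPM.

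Of 115 other Wnt pathway genes listed by role, 114 were found, and 76 reached 1 FPKM. In SclKO over WT 6 of these 76 were higher and 3 lower, with a median ratio of 0.25, beside 2.12% higher, 4.24% lower and a median of -0.03 over all genes at 1 FPKM. Higher were Tnks (1.16), a tankyrase that marks axin for degradation, Dact1 (1.30) and Dact3 (1.48), which bind Dishevelled, Bcl9l (1.01), a coactivator of beta-catenin, Daam2 (1.28), a formin that acts with Dishevelled, and Cdx2 (2.72), a homeobox gene of the posterior embryo. Lower were Sost (-1.22), an antagonist of Lrp5 and Lrp6, Tspan12 (-1.16), a partner of Fzd4 in Norrin signalling, and Nfatc1 (-1.55), a factor of the calcium branch. In the library labelled Gata12KO over WT 2 were higher, Cdx2 (1.32) and Apcdd1 (1.11), a membrane inhibitor of Wnt signalling, and Tle5 (-1.002), a relative of the Groucho corepressors, was lower. The median ratio was 0.08, beside -0.08 over all genes, of which 0.767% were higher and 3.75% lower. Set against SclKO, the library labelled Gata12KO had 6 of them higher and 8 lower with FPKM, and a median of -0.22, beside 3.38% higher, 3.75% lower and a median of -0.06 over all genes. The higher ones were Sost (2.21), Nfatc1 (2.21), Fgf8 (1.55), Sox17 (1.53), Tle4 (1.48), a Groucho corepressor, and Tspan12 (1.14). Among the lower ones were Daam2 (-2.18), Dact3 (-1.76), Msx2 (-1.41), Cdx2 (-1.40), Dact1 (-1.24), Prickle1 (-1.22), a gene of planar polarity, and Bambi (-1.04). Daam2 had 1.09 FPKM in the library labelled Gata12KO and 8.49 in SclKO.

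Of those 115, 28 were listed as genes known to be beta-catenin targets in embryos or cell lines, and 19 reached 1 FPKM. In SclKO over WT Cdx2 was higher and 0 were lower, with a median ratio of 0.38, beside 2.12% higher, 4.24% lower and a median of -0.03 over all genes. Cdx2 had 16.7 FPKM in SclKO (15.6 to 17.8), 5.71 in the library labelled Gata12KO (5.23 to 6.18) and 1.68 in WT (1.35 to 2.01), in the same order of libraries as Axin2 and Lef1. Ccnd1, the cyclin D1 gene, had 36.4, 22.5 and 18.2 FPKM, a ratio of 0.96 in SclKO over WT that did not pass the rule. Sp5, a direct target in the early embryo, had 0.223 FPKM in SclKO, 0.134 in the library labelled Gata12KO and 0.132 in WT. Myc, a target in colon cells, had 34.9, 32.2 and 27.8 FPKM. T (brachyury), a target in the primitive streak, had 1.45, 1.45 and 0.748 FPKM. Other genes of the list had WT above SclKO, among them Sox17, an endoderm and endothelial factor, with 2.09 FPKM in SclKO, 7.93 in the library labelled Gata12KO and 4.34 in WT, and Cd44, named after its values were seen, with 6.68, 4.89 and 8.97. The ratios of Sox17 and Cd44 in SclKO over WT, -0.79 and -0.38, did not pass the rule.

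Endothelial, blood and mesenchymal markers differed between the libraries. Over all genes at 1 FPKM, 2.12% were higher and 4.24% lower in SclKO than in WT. The library labelled Gata12KO had 0.767% higher and 3.75% lower than WT, and 3.38% and 3.75% than SclKO. Of 14 endothelial markers, 7 were lower and 0 higher in SclKO than in WT, and their summed level was 365 FPKM in SclKO, 849.8 in the library labelled Gata12KO and 713 in WT. Eng went the other way without passing the rule, with 46.0 FPKM in SclKO (43.2 to 48.8) and 28.2 in WT (19.4 to 36.9). In the library labelled Gata12KO, 9 of the 14 were higher and 0 lower than in SclKO, and 2 were higher and 0 lower than in WT. Of 11 markers of smooth muscle and mesenchyme, 5 were higher in SclKO than in WT (Pdgfrb, Col3a1, Cdh11, Snai2 and Foxf1) and 0 lower, with sums of 191, 42.7 and 95.0 FPKM in SclKO, the library labelled Gata12KO and WT. Of these 11, 9 were lower in the library labelled Gata12KO than in SclKO, and 1 was higher and 3 lower than in WT. Of 10 blood markers, 9 were lower in SclKO than in WT, as were 8 in the library labelled Gata12KO, with sums of 1.47, 28.04 and 201.0 FPKM. Ptprc (CD45) was listed at 0 in SclKO and WT and had 0.00396 FPKM in the library labelled Gata12KO. Itga2b, which encodes the CD41 that the sort was to leave out, had 0.333 FPKM in SclKO, 17.6 in the library labelled Gata12KO and 22.8 in WT. In the other 5 lists, 0 markers passed the rule in SclKO over WT. The 9 cardiomyocyte markers summed to 16.3, 13.2 and 14.4 FPKM, with Myh6, Myh7 and Ttn at or under 0.351 in every library, and the 6 markers of the primitive streak and presomitic mesoderm to 4.02, 3.67 and 4.58, with Msgn1 listed at 0 in all 3. The 8 endoderm and epithelial markers summed to 140.1, 38.8 and 90.4 FPKM, with Afp at or under 0.0333. Krt8 (77.5, 17.1 and 40.8) and Krt18 (59.1, 18.1 and 45.2) made up most of these sums. Both were lower in the library labelled Gata12KO than in WT and than in SclKO, while Foxa2 and Hnf4a stayed at or under 0.426 in every library. The 5 neuroectoderm markers summed to 4.09, 6.60 and 3.59 and the 5 pluripotency markers to 8.13, 5.62 and 8.60.

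The members higher in SclKO (Fzd2, Fzd10, Ror2, Dkk1, Lef1 and Axin2) thus stood beside 5 of 11 mesenchymal markers higher and 7 of 14 endothelial markers lower there. With FPKM, the 7 members lower in the library labelled Gata12KO than in SclKO stood beside 9 lower mesenchymal and 9 higher endothelial markers. TPM left 0 of those 7 calls. Median-ratio scaling left 5, the sum over transcripts of 300 nt or longer left 5, and removing the length trend left 6. The marker calls are given with FPKM only. Sfrp2 stood beside lower blood markers in both knockout-labelled libraries. Other markers were also lower than in WT, namely the 7 endothelial ones in SclKO, and 3 mesenchymal ones, Krt8 and Krt18 in the library labelled Gata12KO. The part of these markers in the ratios was not tested. In such bulk libraries, fewer cells of a type and less RNA per cell cannot be told apart.

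**Figure D5:**
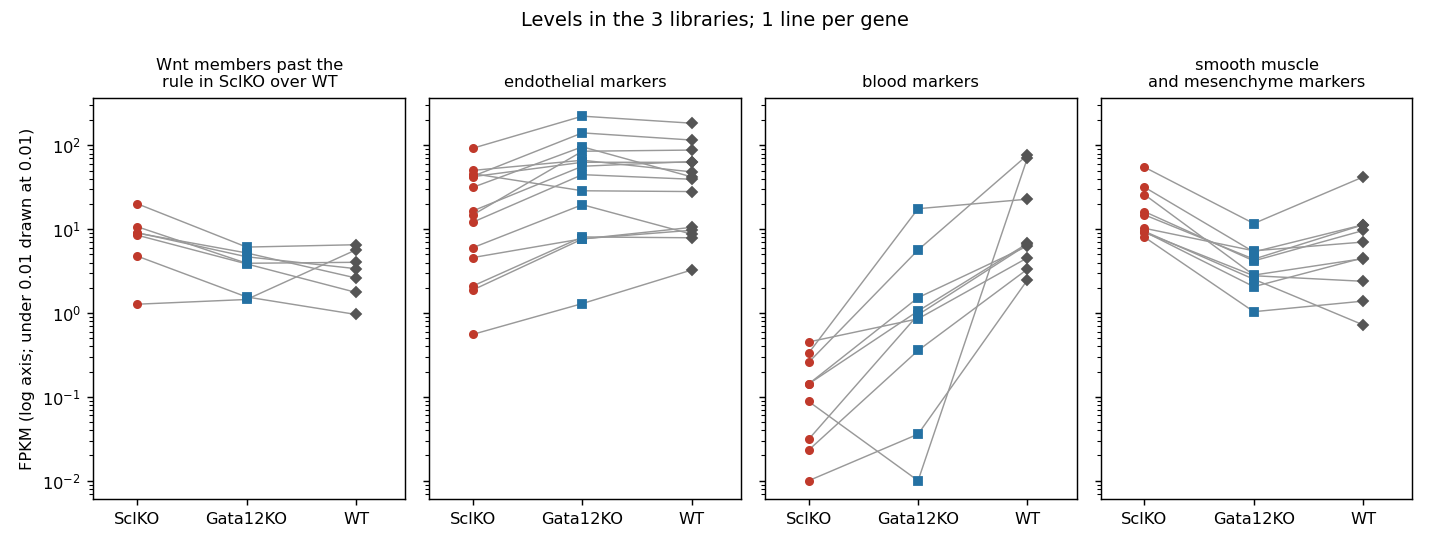
FPKM (log axis) in SclKO, Gata12KO and WT, 1 line per gene, for the 7 Wnt pathway genes past the rule in SclKO over WT and for endothelial, blood, and smooth muscle and mesenchyme markers with at least 1 FPKM in any library. Blood markers sum to 1.47 FPKM in SclKO and 201.0 in WT, and mesenchymal markers to 191 in SclKO and 95.0 in WT. The lines carry no error, as there was 1 library per group.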

How the data were processed

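RNA of Tie2+CD31+CD41- cells was sequenced in 1 library per group, with reads of 50 nt. The authors deposited 1 table of transcripts per library with FPKM and its lower and upper bounds, per the file headers. The submitters' processing notes name TopHat2 2.0.4, Cufflinks 2.0.1, Cuffdiff, mm9 and hg19, with no role given. Gene coordinates are given as mm9, the mouse build among these. Strand settings are not given in the sources used here.

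Entries of a library were joined by RefSeq accession, and 136 of the Gata12KO library by transcript structure. Of 29610 accessions, 29026 were named from a RefSeq gene table, 177 from GENCODE and 407 by neither, and FPKM and bounds were summed per symbol over 23397 genes, after leaving out 134 entries whose symbol differed between libraries. Python 3.11.15, numpy 2.4.6, pandas 2.3.3, statsmodels 0.14.6 and matplotlib 3.10.9 were used. Total fragments were read from the relation of bounds to FPKM, taking bounds as 2 Poisson SDs. The size rule (at least 1 FPKM in any library, at least 2-fold with a pseudocount of 1 FPKM, bounds apart) stood in for a test. A run of the rule on simulated data drew counting error only, so it cannot show how the rule acts on differences between cultures. Its changed genes were set at WT levels above those of every member called in SclKO over WT. Named were all members with at least 1 FPKM in any library, the 3 nearest the limit on either side, other pathway genes past the rule (1 is not reported here), and Wls, Sp5, T, Myc and Ccnd1, while members under 1 FPKM were given mostly by range. Alternatives changed the pseudocount, minimum, fold limit, scaling, length trend and handling of entries. The members and lists were chosen with earlier results of these data known. Intervals cover counting error, can be wider for genes with several entries, and cover no differences between cultures.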

Additional observations from a re-analysis of the deposited data

How the results depend on the processing

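The rule had 10 alternatives. A pseudocount of 5 FPKM left 1 member higher and 0 lower in SclKO over WT (6 and 1 as reported; median 0.25 against 0.40). The library labelled Gata12KO then had 0 members lower than WT (1 as reported), and 0 higher and 1 lower than SclKO (1 and 7; median -0.21 against -0.33). Over all genes, 0.74% were then higher and 1.66% lower in SclKO over WT. The library labelled Gata12KO had 1.43% lower than WT, and 1.19% higher and 1.45% lower than SclKO. A pseudocount of 0.1 gave 12 higher in SclKO over WT, with 1 higher in the library labelled Gata12KO over WT (0 as reported) and 11 lower over SclKO. The shares of all genes in these 3 directions were 4.29%, 2.07% and 6.23%. A 1.5-fold limit gave 15 higher and 2 lower in SclKO over WT, and the library labelled Gata12KO had 4 and 4 over WT, and 15 lower over SclKO. With that limit 7.89% of all genes were higher and 11.3% lower in SclKO over WT. For the library labelled Gata12KO these shares were 4.77% and 14.0% over WT, with 11.3% lower over SclKO. With no minimum level the median was 0.21 in SclKO over WT, and for the library labelled Gata12KO over SclKO it was -0.12. TPM gave a median of 0.27 in SclKO over WT. It gave 7 higher and a median of 0.64 in the library labelled Gata12KO over WT (0.05 as reported), and 4 higher, 0 lower and a median of 0.37 over SclKO, which is the opposite sign. With TPM 38 members reached 1 FPKM. Beside them, 11.6% of all genes were higher in that library over WT, and 18.8% higher and 1.05% lower over SclKO. The sum over transcripts of 300 nt or longer gave a median of 0.53 in SclKO over WT. For the library labelled Gata12KO it gave 3 higher over WT, beside 2.35% of all genes. The medians of members were then 0.28 over WT and -0.21 over SclKO. Genes under 300 nt held 72.4% of summed FPKM in SclKO, 56.5% in the library labelled Gata12KO and 66.7% in WT, and TPM moved the median of all genes to -0.14 in SclKO over WT, and for the library labelled Gata12KO to 0.52 over WT and to 0.66 over SclKO, so ratios there are read against those shifts. The cause of the other changes was not tested. Median-ratio scaling, removing the length trend, a minimum of 5 FPKM and the highest single entry per gene kept each count of members within 1.5-fold and each median within 0.1. Of 1110 recomputed ratios of single members, 909 moved little and 201 moved. These labels do not count every change of sign, since the median of the library labelled Gata12KO over SclKO changed sign with TPM. Nor do they count every changed call. With the pseudocount of 0.1 the ratios of Wnt5a (0.79 to 1.03) and Dkk3 (0.90 to 1.08) in SclKO over WT counted as moving little but passed the rule.

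No paired analysis was possible because each group had 1 library, and for the same reason no replicate was left out. Depth limits the members under 1 FPKM, where a few fragments set the level.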
